A study of Mus musculus with 16 samples.

Results

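The 36 genes described here encode the heat shock chaperones and the machinery of the unfolded protein response: 12 chaperones and co-chaperones of the cytosol, 3 chaperones of mitochondria, 14 folding factors of the endoplasmic reticulum (ER) and 7 regulators. They were chosen by gene symbol, with earlier results of these data known. All 36 were found in both deposited tables, among the 18268 genes that the tables share. The poly(A) RNA came from the dissected medial prefrontal cortex of male ICR mice, an outbred stock with no engineered allele in the labels. Pups were taken 1 day (P1) or 14 days (P14) after birth, and their dams had gone through prenatal stress (PNS) or served as unstressed controls (Ctrl). The 4 groups held 4 libraries each, 16 in all. The sources used here do not give the stressor, the litters or the number of animals per library. P-values therefore measure the spread between these libraries, which may be technical.

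Heat shock proteins bind unfolded or partly folded proteins and use ATP, with the help of J-domain proteins and nucleotide exchange factors, to bring them to their folded state. The cytosolic response is governed by the transcription factor HSF1, which is held back by chaperones and binds the heat shock element in promoters when unfolded proteins draw those chaperones away. The ER has its own chaperones, and its unfolded protein response is run by the sensors IRE1, PERK and ATF6, which act through the transcription factors XBP1, ATF4 and cleaved ATF6. Neurons make large amounts of secreted and membrane protein, all of which passes through the ER. Both responses are switched in large part by splicing, translation, cleavage and binding of proteins, which gene-level read counts do not measure.

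Libraries held 33977413 to 58842635 reads at P1 and 15068575 to 72978561 reads at P14, where Ctrl replicate 3 was the shallowest. Levels within an age are the authors' normalized counts, in which each age was scaled on its own. Levels across ages are given as CPM, which are reads scaled by the library total and by the TMM factor of edgeR over both ages. CPM values therefore differ from reads divided by the library total alone. Genes that mark cortical neurons were high in every library, with a summed normalized count of 125110 to 174522 at P1 and 131452 to 188058 at P14 over 9 genes. Marker sums of other tissues and cell types were not even across libraries. At P1, PNS replicates 1, 2 and 3 had summed olfactory bulb markers of 15318, 23304 and 19164, against 9496 to 11131 in Ctrl and 8257 in PNS replicate 4, and all 9 marker genes averaged higher in PNS. At P14, PNS replicate 4 stood apart: 45.6% of all genes lay more than 0.25 (log2) from the mean of the other 7 libraries, against 15.8% to 21.7% in each of those 7. At P1 that share was 33.5% in PNS replicate 3 and 33.1% in Ctrl replicate 4, against 16.7% to 25.8% in the others. In bulk tissue a smaller number of cells of a type and less RNA per cell cannot be told apart.

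The levels of the 36 genes spanned more than 3 orders of magnitude when divided by exon length. In Ctrl at P1, Hsp90ab1, the constitutive cytosolic HSP90, was at 747 ± 36.4 CPM per kb (SD, n = 4). Hspa8, the constitutive HSC70, followed at 269 ± 15.7, then the ER lectin chaperone Calr at 226 ± 12.8 and Hsp90aa1, the inducible HSP90, at 197 ± 11.3. These 4 were separated from each other by more than their SDs, which cover only the spread between libraries. The order also depends on the exon length used: before division by it, Hsp90aa1 was at 774 CPM and Calr at 651. Hspa8 and Hsp90aa1 also share much of their sequence with other transcripts, as given below. The ER folding enzymes came next, with Pdia3 at 95.8 ± 5.21 and with Hsp90b1, Hspa5 and Canx between 63.0 and 64.3, which overlapped within 1 SD. The mitochondrial Hspd1, Hspa9 and Hspe1 stood at 57.7 ± 1.85, 43.9 ± 1.08 and 34.9 ± 2.77 CPM per kb. Several genes were much lower: Hspa1b at 3.23 ± 0.597, Bag3 at 2.51 ± 0.305, Hspb1 at 1.42 ± 0.163, Hspa1a at 0.882 ± 0.160 and Trib3 at 0.298 ± 0.0604. Of the 35 neighbouring pairs in this order, 15 overlapped within 1 SD in Ctrl at P1, 19 in PNS at P1, 16 in Ctrl at P14 and 20 in PNS at P14.

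**Figure D1:**
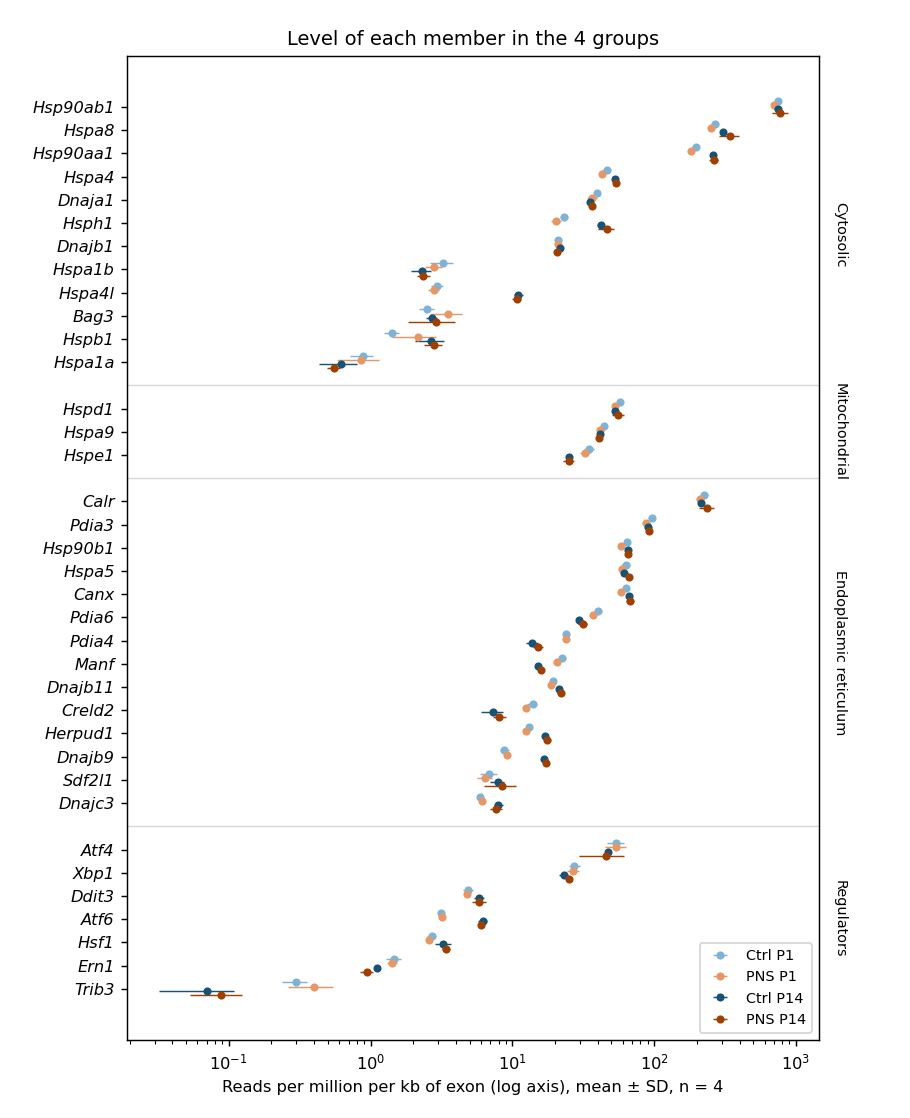
Levels of the 36 genes in CPM per kb of exon on a log axis, as mean ± SD over the 4 libraries of each group, ordered by compartment. Hsp90ab1 is the highest in all 4 groups, and Trib3 is the lowest, at 0.298 in Ctrl at P1 and 0.0706 in Ctrl at P14.

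Promoters were available for 29 of the 36 genes, as RefSeq sequences on GRCm38.p6 (mouse), and the 250 bases before the transcription start were searched on both strands. The heat shock element, written as GAANNTTC (N is any base), was found in 6 of the 29: Hspa1a, Hspa1b, Hspb1, Dnaja1, Hspd1 and Hspe1. Of 32851 promoter windows of the same length, 6.69% held it, or 7.73% of genes with a window. The stretches around it are shown because they belong to the inducible cytosolic genes and to the mitochondrial pair, which are compared below, with the element in capitals.
Hspa1a, chr17:34972233-34972280, minus strand: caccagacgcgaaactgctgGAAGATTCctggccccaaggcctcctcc
Hspa1b, chr17:34959315-34959362, minus strand: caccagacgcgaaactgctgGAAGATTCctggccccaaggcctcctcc
Hspb1, chr5:135887782-135887849, plus strand: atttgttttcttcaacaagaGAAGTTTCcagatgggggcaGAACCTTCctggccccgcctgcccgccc
Hspd1, chr1:55088044-55088091, minus strand: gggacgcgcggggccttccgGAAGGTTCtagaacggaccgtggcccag
Hspe1, chr1:55088044-55088091, plus strand: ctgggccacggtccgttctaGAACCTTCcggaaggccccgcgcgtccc
The Hspa1a and Hspa1b windows were identical at 247 of 250 bases. Hspd1 and Hspe1, which encode HSP60 and its lid HSP10, are transcribed head to head, and both stretches are the same DNA read on opposite strands. Their window also held the longer element of 3 units, in which GAANNTTC is followed after 2 bases by GAA. It was held by 0.466% of all windows (0.514% of genes) and by no other of the 29. These matches say where letters occur, not whether HSF1 was bound.

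The ER stress element, CCAAT followed after 9 bases by CCACG, is the binding sequence of ATF6 together with NF-Y. It was found in 7 of the 29 genes, all of them ER folding factors, and in 0.113% of the 32851 windows (0.130% of genes). It is shown in capitals because these are the ER genes whose stress comparisons are described last, and Hsp90b1 held it in both orientations.
Hspa5, chr2:34772005-34772063, plus strand: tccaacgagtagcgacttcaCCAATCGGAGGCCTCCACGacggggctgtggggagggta
Hsp90b1, chr10:86705513-86705676, minus strand: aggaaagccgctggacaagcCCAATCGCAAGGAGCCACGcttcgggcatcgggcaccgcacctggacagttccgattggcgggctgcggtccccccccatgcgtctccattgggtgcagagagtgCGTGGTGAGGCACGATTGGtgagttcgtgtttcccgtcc
Pdia6, chr12:17266471-17266529, plus strand: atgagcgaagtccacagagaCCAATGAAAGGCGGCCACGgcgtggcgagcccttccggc
Creld2, chr15:88819500-88819558, plus strand: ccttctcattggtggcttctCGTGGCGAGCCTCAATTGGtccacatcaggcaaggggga
Calr, chr8:84847055-84847113, minus strand: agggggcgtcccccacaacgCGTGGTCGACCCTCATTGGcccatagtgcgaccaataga
Canx, chr11:50325780-50325838, minus strand: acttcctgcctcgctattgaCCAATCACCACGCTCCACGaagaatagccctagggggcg
Dnajc3, chr14:118937807-118937865, plus strand: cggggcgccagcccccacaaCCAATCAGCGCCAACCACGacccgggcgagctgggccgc
Coordinates are on GRCm38, and each line reads 5′ to 3′ towards its gene. TGATGNAA, the ATF4 element, was found in Herpud1 alone of the 29 and in 3.45% of windows. TGACGTGG, the element bound by XBP1 and ATF6, was found in 0 of the 29 and in 0.563% of windows.

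The comparison of P14 with P1 asked how these genes change over the first 2 weeks in unstressed pups, and then in stressed ones. In Ctrl, 23 of 36 genes passed (edgeR quasi-likelihood, adjusted p below 0.05), 13 higher and 10 lower at P14, a share of 63.9% beside 71.2% of all 17139 genes tested, of which 34.8% were higher and 36.4% lower. In PNS 24 of 36 passed, 16 higher and 8 lower, beside 72.3% of all genes, 34.3% higher and 38% lower. The call had the same direction in both conditions for 19 genes, 12 higher and 7 lower, or 52.8% beside 64.6% of all genes. In Ctrl, the libraries of P14 and P1 did not overlap for 19 of the 36 genes, beside 11450 of all 17139. Of these, 9 were higher and 10 lower at P14, beside 5545 and 5905 of all genes. In PNS it was 22 of 36, 15 higher and 7 lower, beside 10902 of all genes, 5193 higher and 5709 lower. The median log2 difference over all 36 genes was 0.01 in Ctrl and 0.15 in PNS, against -0.04 and -0.07 for all genes. With 1 library left out, the Ctrl median ran from 0.00 to 0.04 and the PNS median from 0.07, without PNS replicate 4 of P14, to 0.18.

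Of the cytosolic genes, Hspa4l, an exchange factor of the HSP110 family, had the largest rise in Ctrl and in PNS. Hspa4l (chr3:40744495-40796103, plus strand, GRCm38) was at 33.0, 39.5, 34.6 and 32.2 CPM in the 4 Ctrl libraries of P1 and at 128, 144, 127 and 121 in those of P14. It was 3.76-fold higher at P14 in Ctrl, with a log2 difference of 1.91 ± 0.0839 (SE, edgeR adjusted p = 2.51e-12), and 3.86-fold higher in PNS. Hsph1, of the same family, was at 160, 178, 158 and 180 CPM in Ctrl at P1 and at 288, 326, 304 and 303 at P14, without overlap. It was 1.82-fold higher in Ctrl (log2 0.87 ± 0.0862, edgeR adjusted p = 8.93e-08) and 2.27-fold higher in PNS. Hspa4, the third of the family, differed by 0.20 in Ctrl and 0.34 in PNS on the log2 scale and passed in both.

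The small heat shock protein gene Hspb1 was at 1.28, 1.47, 1.42 and 1.68 CPM in Ctrl at P1 and at 3.23, 1.99, 3.32 and 2.49 at P14. All P14 libraries lay above all P1 libraries, and the gene was 1.88-fold higher (log2 0.91 ± 0.234, edgeR adjusted p = 0.00223). In PNS, Hspb1 differed by 0.38 and did not pass (edgeR adjusted p = 0.146), though it did without PNS replicate 3 of P1 (log2 0.57, edgeR adjusted p = 0.0369). Hsp90aa1 rose by 0.42 in Ctrl and 0.53 in PNS, while its constitutive partner Hsp90ab1 had a log2 difference of 0.00 ± 0.0837 in Ctrl and 0.14 in PNS, neither of which passed. Hspa8 passed narrowly in Ctrl (log2 0.21, edgeR adjusted p = 0.0484), where its adjusted p was between 0.0585 and 0.118 without any single Ctrl library other than replicate 4 of P1. In PNS it was 0.45 higher. Hspa1b fell by 0.49 in Ctrl and had a difference of -0.25 in PNS that did not pass (edgeR adjusted p = 0.146). Dnaja1, a J-domain co-chaperone, fell by 0.16 there, and was 0.01 apart in PNS. That call of Dnaja1 ended without Ctrl replicate 2 of P1 or Ctrl replicates 3 or 4 of P14 (edgeR adjusted p between 0.0566 and 0.0778). Hspa1a passed in PNS (log2 -0.64, edgeR adjusted p = 0.0241) and not in Ctrl (log2 -0.47), where it did pass without replicate 1 of P14 (log2 -0.70, edgeR adjusted p = 0.0168). Its PNS call ended without PNS replicate 4 of P1 or replicates 2 or 3 of P14 (edgeR adjusted p up to 0.110). Dnajb1, the J-domain partner induced with HSP70, differed by 0.06 in Ctrl, and Bag3 by 0.11. Neither passed in either condition, though Bag3 did in PNS without replicate 4 of P14 (log2 -0.57, edgeR adjusted p = 0.00817).

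Of the 3 mitochondrial genes, Hspe1 alone passed. It fell in Ctrl, from 51.6, 54.8, 53.8 and 45.7 CPM at P1 to 36.9, 35.4, 39.1 and 36.8 at P14, without overlap. Its log2 difference was -0.47 in Ctrl and -0.38 in PNS, and both passed. Hspd1, which shares the promoter stretch above with Hspe1, had differences of -0.11 and 0.07. Hspa9, the mitochondrial HSP70, had differences of -0.06 and -0.03, and neither Hspd1 nor Hspa9 passed in either condition.

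The ER genes divided. Dnajb9, an ER J-domain co-chaperone of BiP, was at 22.1, 24.7, 22.2 and 20.7 CPM in Ctrl at P1 and at 40.5, 43.0, 41.7 and 45.7 at P14. It was 1.92-fold higher (log2 0.94 ± 0.0639, edgeR adjusted p = 6.49e-10). Dnajc3, Herpud1 and Dnajb11 rose as well in both conditions, by 0.16 to 0.45 in Ctrl and 0.24 to 0.50 in PNS; Dnajc3 is an ER co-chaperone, Herpud1 belongs to ER-associated degradation and Dnajb11 is a further partner of BiP.

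The ER genes that fell were Pdia4, Manf, Creld2 and Pdia6, in both conditions. Creld2, an ER-resident protein induced by ER stress, went from 18.4, 21.2, 18.03 and 18.1 CPM in Ctrl at P1 to 7.66, 11.2, 11.4 and 9.61 at P14 (log2 -0.93 ± 0.112, edgeR adjusted p = 1.01e-06). Pdia4, a disulfide isomerase, went from 58.6, 59.0, 55.7 and 54.6 to 28.2, 35.2, 34.1 and 34.8 (log2 -0.78 ± 0.0762, edgeR adjusted p = 7.49e-08). Manf, a secreted ER protein with neurotrophic activity, went from 76.9, 83.2, 74.0 and 83.8 to 52.1, 54.5, 53.5 and 53.6 (log2 -0.56 ± 0.0591, edgeR adjusted p = 1.78e-07). For these 3 genes every P14 library of Ctrl lay below every P1 library, as for 5905 of all 17139 genes tested. The abundant chaperones Hspa5 (BiP), Hsp90b1 (GRP94), Canx, Calr and Pdia3 had differences between -0.08 and 0.09 in Ctrl, none of which passed. In PNS, Hspa5, Hsp90b1 and Canx were higher at P14 by 0.16, 0.16 and 0.21 and passed, as did Sdf2l1, a partner of Dnajb11, by 0.41. The call of Hspa5 ended without replicate 3 of P1 or of P14 (edgeR adjusted p = 0.0790 and 0.0914). That of Sdf2l1 ended without replicates 2 or 3 of P1 or 1 or 3 of P14 (edgeR adjusted p up to 0.137), and Calr passed without replicate 1 of P14 (log2 0.22, edgeR adjusted p = 0.0201). Whether they differ between the conditions is tested below.

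Among the regulators, Atf6, the membrane-bound transcription factor of the ER, was at 29.1, 28.5, 28.8 and 30.0 CPM in Ctrl at P1 and at 55.6, 60.3, 60.5 and 52.1 at P14. It was 1.97-fold higher (log2 0.98 ± 0.0611, edgeR adjusted p = 2.02e-10). Trib3, a pseudokinase induced by ATF4 and CHOP, was at 0.591, 0.476, 0.774 and 0.689 CPM at P1 and at 0.0901, 0.223, 0.0692 and 0.217 at P14. It was 3.83-fold lower (log2 -1.94 ± 0.359, edgeR adjusted p = 0.000122), from few reads at P14. Hsf1 and Ddit3 (CHOP) rose and Ern1 (IRE1) fell in both conditions. Their log2 differences in Ctrl were 0.27, 0.27 and -0.37. The call of Ddit3 ended in Ctrl without replicate 4 of P1 or 2 of P14 (edgeR adjusted p = 0.0743 and 0.0776), and in PNS without replicate 3 of P14 (edgeR adjusted p = 0.0776). Xbp1 fell in Ctrl (log2 -0.24, edgeR adjusted p = 0.0142), though not without replicate 2 of P1 or 4 of P14 (edgeR adjusted p = 0.0589 and 0.0513), and had a difference of -0.10 in PNS that did not pass. Atf4 passed in neither, with an SE of 0.208 in both.

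**Figure D2:**
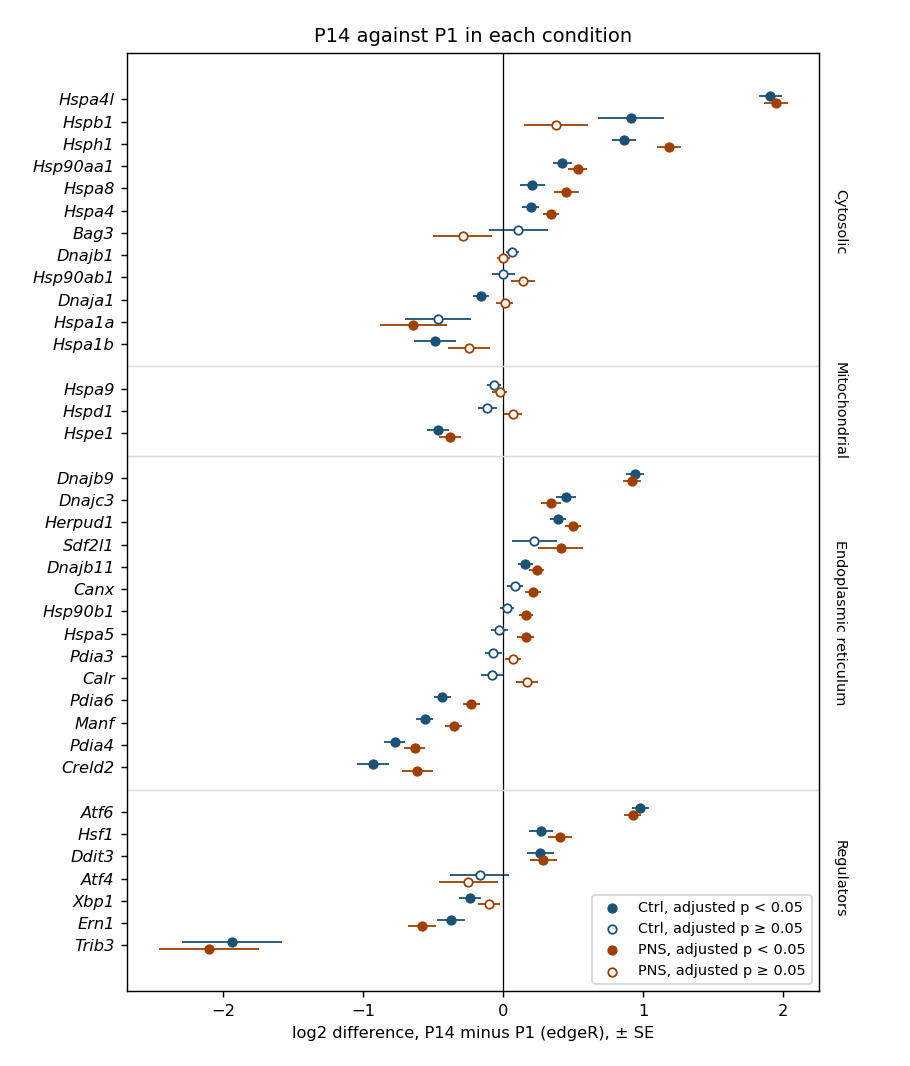
Log2 difference between P14 and P1 for each gene in Ctrl and in PNS, with SE, from edgeR; filled points passed at an adjusted p below 0.05. Hspa4l has the largest rise (1.91 in Ctrl) and Trib3 the largest fall (-1.94 in Ctrl), and Hspa5, Hsp90b1, Canx, Calr and Pdia3 lie between -0.08 and 0.09 in Ctrl and between 0.07 and 0.21 in PNS.

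Of the 98 other genes of these pathways, 68 passed in Ctrl, 30 higher and 38 lower, and 75 in PNS, 35 higher and 40 lower. These shares of 69.4% and 76.5% stand beside 71.2% and 72.3% of all genes. All 8 measured subunits of the cytosolic chaperonin TRiC, which folds actin and tubulin, fell in both conditions, with a median log2 difference of -0.68 in Ctrl and -0.57 in PNS. Cct3 fell the most of them, from 212 to 95.6 CPM in Ctrl (log2 -1.14, edgeR adjusted p = 3.88e-11). The HSP70 gene Hspa2 rose from 3.84 to 47.0 CPM (log2 3.62, edgeR adjusted p = 7.74e-12) and the small heat shock gene Cryab from 5.31 to 29.6 (log2 2.49, edgeR adjusted p = 1.39e-11). Cebpb, a transcription factor, rose by 1.79, while the mitochondrial folate enzyme Mthfd2, a target of ATF4, and the disulfide isomerase Pdia5 fell by 1.58 and 1.18. The myelin marker sum was higher at P14 than at P1 (15625 to 59892 against 5015 to 12853 normalized counts, scaled separately and over 10 and 8 genes), and its part in the rise of Cryab was not tested.

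The comparison of PNS with Ctrl at P1 asked whether stress before birth changed these genes in the newborn cortex. None of the 36 genes passed (limma, adjusted p below 0.05), as none of the 16711 genes tested did, 0% of them. edgeR and DESeq2 called 0 of the 36 too. Over all genes, 1115 had an unadjusted p below 0.05 in limma, edgeR called 0, and DESeq2 called 57 higher and 13 lower. Without PNS replicate 4, limma called 120 higher and 3 lower over all genes and 0 of the 36. Of the 36, 31 lay below 0, beside 55.5% of all genes, and their median log2 difference was -0.09, against -0.02 for all genes. The cytosolic, mitochondrial and ER genes had medians of -0.10, -0.10 and -0.11, and the regulators -0.02. An unadjusted p below 0.05 was reached by 4 of the 36, or 11.1% beside 6.67% of all genes: Hsp90b1, Hsph1 and Hspd1, with lower values in PNS, and Bag3, with higher. The groups did not overlap for 2 genes, Hspd1 and Creld2, both lower in PNS, beside 1.54% of all genes. The count of genes with higher values and no overlap was 0, beside 1.69%, and 3.23% of all genes did not overlap in either direction. Without PNS replicates 2 and 3, the libraries with the highest olfactory bulb sums, 27 lay below 0 and the median was -0.05. Of the cortical neuron markers, 1 of 9 averaged higher in PNS. Their sum was 127889 to 174522 in Ctrl, 125110 to 125981 in the first 3 PNS libraries and 146151 in PNS library 4. Striatal marker sums were 10372 to 11014 in PNS and 11390 to 16992 in Ctrl, without overlap, with 1 of 10 genes higher in PNS. The part of these sums in the member values was not tested.

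Hsp90b1, the HSP90 of the ER, was at 12854, 13792, 13364 and 12598 normalized counts in Ctrl and at 12681, 11549, 11213 and 11768 in PNS. Only PNS replicate 1 reached into the Ctrl range. Its log2 difference was -0.16 ± 0.0579 (SE, limma adjusted p = 0.687). Hsph1 was at 8071, 9002, 7954 and 9178 in Ctrl and at 8034, 6888, 7021 and 7999 in PNS, where replicates 2 and 3 were lowest, with a difference of -0.19 ± 0.0750 (limma adjusted p = 0.719). It was -0.09 without those 2 libraries.

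Hspd1 was at 7544, 7998, 7442 and 7934 in Ctrl and at 7055, 6803, 7077 and 7423 in PNS. Every PNS library lay below every Ctrl library, PNS replicate 4 only just. The log2 difference was -0.12 ± 0.0518 (limma adjusted p = 0.744). Manf was at 3888, 4216, 3736 and 4282 in Ctrl and at 3749, 3332, 3782 and 3707 in PNS, and the groups overlapped (log2 -0.15 ± 0.0657, limma adjusted p = 0.748). Creld2 was at 932, 1076, 910 and 928 in Ctrl and at 809, 878, 841 and 894 in PNS (log2 -0.17, limma adjusted p = 0.748).

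Bag3 and Hspb1 had the largest differences of the 36, both with higher values in PNS, followed by Trib3 (0.38, and 0.17 without PNS replicate 3). Bag3 (chr7:128523616-128546981, plus strand, GRCm38), a co-chaperone that hands damaged proteins to autophagy, was at 369, 318, 275 and 343 in Ctrl and at 450, 464, 589 and 313 in PNS. Hspb1 was at 64.6, 74.3, 71.4 and 86.0 in Ctrl and at 96.6, 132, 150 and 67.3 in PNS. For both genes PNS replicates 1, 2 and 3 lay above all Ctrl libraries and PNS replicate 4 lay within their range. The log2 differences were 0.45 ± 0.177 for Bag3 (limma adjusted p = 0.728) and 0.53 ± 0.242 for Hspb1 (limma adjusted p = 0.748). Without PNS replicate 4 they were 0.61 and 0.75 (limma adjusted p = 0.0876 and 0.138). Without PNS replicates 2 and 3 they were 0.21 and 0.13.

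The same 3 PNS libraries also had higher marker sums of several other cell types. Their summed meningeal markers were 40912, 54719 and 61286 normalized counts, against 29152 to 35782 in Ctrl and 34424 in PNS replicate 4, and 8 of 8 meningeal genes averaged higher in PNS. Endothelial markers were 17809, 19215 and 19041, against 13383 to 16458 in Ctrl and 16755 in replicate 4, with 8 of 8 genes higher. Myelin markers were 8620, 12853 and 10081, against 5120 to 5915 and 5015, with 6 of 8 genes higher. Astrocyte markers were 39652, 39138 and 42230, against 27719 to 35331 and 29399, with 7 of 8 genes higher. Microglia markers, at 10829, 9110 and 12406 against 7192 to 11604 in Ctrl, overlapped with Ctrl. None of these markers was at 0 in any library of P1. The part of these sums in the differences of Bag3 and Hspb1 was not tested.

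Of the 98 other genes of the pathways, 0 passed at P1 and 5 had an unadjusted p below 0.05, 4 higher and 1 lower in PNS, beside 6.67% of all genes. The groups did not overlap for 7 of the 98, 2 higher and 5 lower in PNS. Over all genes, 3.23% did not overlap, 1.69% higher and 1.54% lower. The 4 with the smallest p all had higher values in PNS. They were Serpinh1 (the collagen chaperone HSP47), the small heat shock genes Cryab and Hspb8, and Nupr1, a stress-induced nuclear protein, with log2 differences of 0.30, 0.32, 0.37 and 0.36. Serpinh1 was at 4043, 4131, 3929 and 3998 normalized counts in Ctrl and at 4911, 5623, 5212 and 4213 in PNS, without overlap. Its limma adjusted p was 0.669, and 0.0306 without PNS replicate 4, and its difference was 0.18 without PNS replicates 2 and 3. The 1 gene with lower values was Sel1l, an adaptor of ER-associated degradation (log2 -0.22 ± 0.0834, limma adjusted p = 0.705). All 8 TRiC subunits lay below 0, with a median of -0.11.

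**Figure D3:**
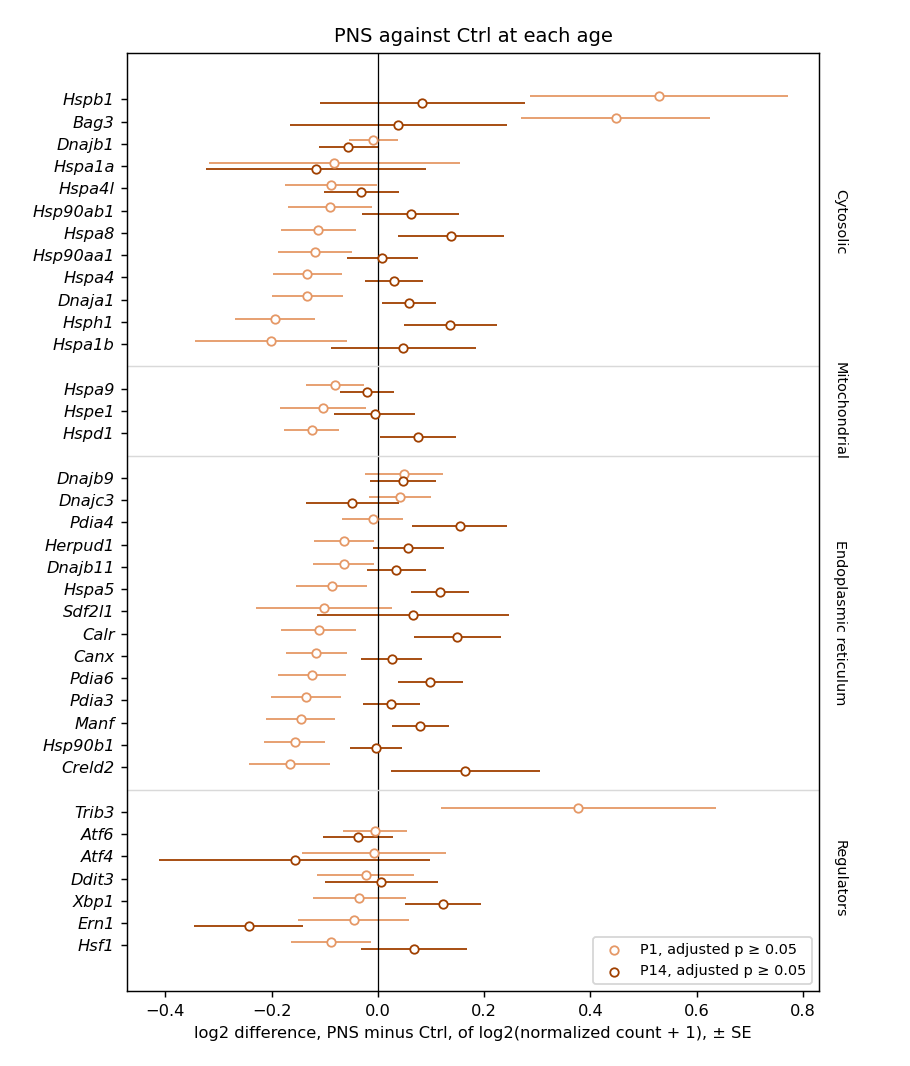
Log2 difference between PNS and Ctrl for each gene at P1 and at P14, with SE, from limma on log2(value + 1). At P1, 31 of 36 genes lie below 0 and none passed; at P14, 25 of 35 lie above 0 and none passed.

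At P14 the same comparison asked whether a difference was present 2 weeks after birth. Trib3 was under the mean of 10 normalized counts that the test required, so 35 genes were tested. None passed (limma), as none of the 15873 genes did, 0% of them, and edgeR and DESeq2 called 0 of the members as well. Over all genes, 479 had an unadjusted p below 0.05 in limma, edgeR called 0, and DESeq2 called 3 higher and 2 lower. Here 25 genes lay above 0 and 10 below, beside 50.6% of all genes above 0 and 49.4% below, and the median was 0.05, against 0.00. It was 0.03 without PNS replicate 3. The medians were 0.04 for the cytosolic, -0.01 for the mitochondrial and 0.06 for the ER genes, and -0.02 for the regulators. Ern1 alone had an unadjusted p below 0.05, beside 3.02% of all genes. Hspa5 alone did not overlap between the groups, with higher values in PNS, beside 1.05% of all genes, and 0 were lower without overlap, beside 1.07% (2.12% in either direction).

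Ern1 (chr11:106394650-106487852, minus strand, GRCm38), which encodes the sensor IRE1, was at 306, 310, 318 and 280 normalized counts in Ctrl and at 293, 251, 260 and 224 in PNS. Only PNS replicate 1 lay within the Ctrl range, and the log2 difference was -0.24 ± 0.102 (limma adjusted p = 0.988). Hspa5, the ER HSP70 that holds the sensors inactive, was at 8397, 9023, 8758 and 8406 in Ctrl and at 9194, 9209, 10017 and 9105 in PNS. Its difference was 0.12 ± 0.0541 (limma adjusted p = 0.988). At P1 the same gene had overlapping groups and a difference of -0.09.

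Xbp1 was at 2382, 2501, 2787 and 2294 in Ctrl and at 2716, 2506, 2777 and 2826 in PNS (log2 0.12 ± 0.0710, limma adjusted p = 0.988). Its spliced and unspliced forms are not separated in gene counts. Pdia4 was at 930, 1161, 1152 and 1153 in Ctrl, where replicate 1 was the lowest, and at 1150, 1212, 1158 and 1363 in PNS. The difference of Pdia4 was 0.15 ± 0.0893 (limma adjusted p = 0.988), 0.08 without Ctrl replicate 1 and 0.10 without PNS replicate 4.

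Several of the P14 differences were lower without PNS replicate 4. Hspa8 was at 43772, 43967, 43814 and 44547 in Ctrl and at 43439, 45565, 45768 and 60655 in PNS, so that this 1 library was far above all others. Its log2 difference was 0.14 ± 0.0996 (limma adjusted p = 0.988) and 0.03 without that library. Calr was at 20180, 19716, 20524 and 20963 in Ctrl and at 20281, 21532, 22236 and 26696 in PNS (log2 0.15 ± 0.0820, limma adjusted p = 0.988), and its difference was 0.07 without it. Pdia6 was at 3532, 3826, 3689 and 3601 in Ctrl and at 3703, 3701, 4064 and 4241 in PNS (log2 0.10 ± 0.0609, limma adjusted p = 0.988), and its difference was 0.06 without it. The same step took Hsph1 from 0.14 to 0.05. It took Bag3 from 0.04 to -0.19 and Hsp90ab1 from 0.06 to -0.02.

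Atf4, the transcription factor made when eIF2 alpha is phosphorylated, had the widest range within a group among those of the 36 genes with a mean of at least 10. It was at 3599, 3728, 3969 and 3595 in Ctrl and at 4432, 3963, 4185 and 1686 in PNS, a ratio of 2.63 between the highest and the lowest PNS library. The log2 difference was -0.16 ± 0.255 (limma adjusted p = 0.988) and 0.17 without PNS replicate 4. The narrowest range was that of Herpud1 in Ctrl at P1, at 1555, 1539, 1534 and 1552, a ratio of 1.01. In PNS replicate 4 of P14, 11 of 35 genes, or 31.4%, lay more than 0.25 from the mean of the other libraries, beside the 45.6% of all genes above. That library also had the highest summed cortical neuron markers of P14 (188058, against 131452 to 146961) and red cell markers (28166, against 5086 to 13642). Its sums of meningeal (9266, against 4652 to 8021), endothelial (11328, against 8384 to 9870) and microglia markers (13207, against 10143 to 11553.5) were the highest too. The lowest were its myelin markers (15625, against 20420 to 59892) and striatal markers (6428, against 7243 to 8218). The part of these sums in its chaperone levels was not tested.

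**Figure D4:**
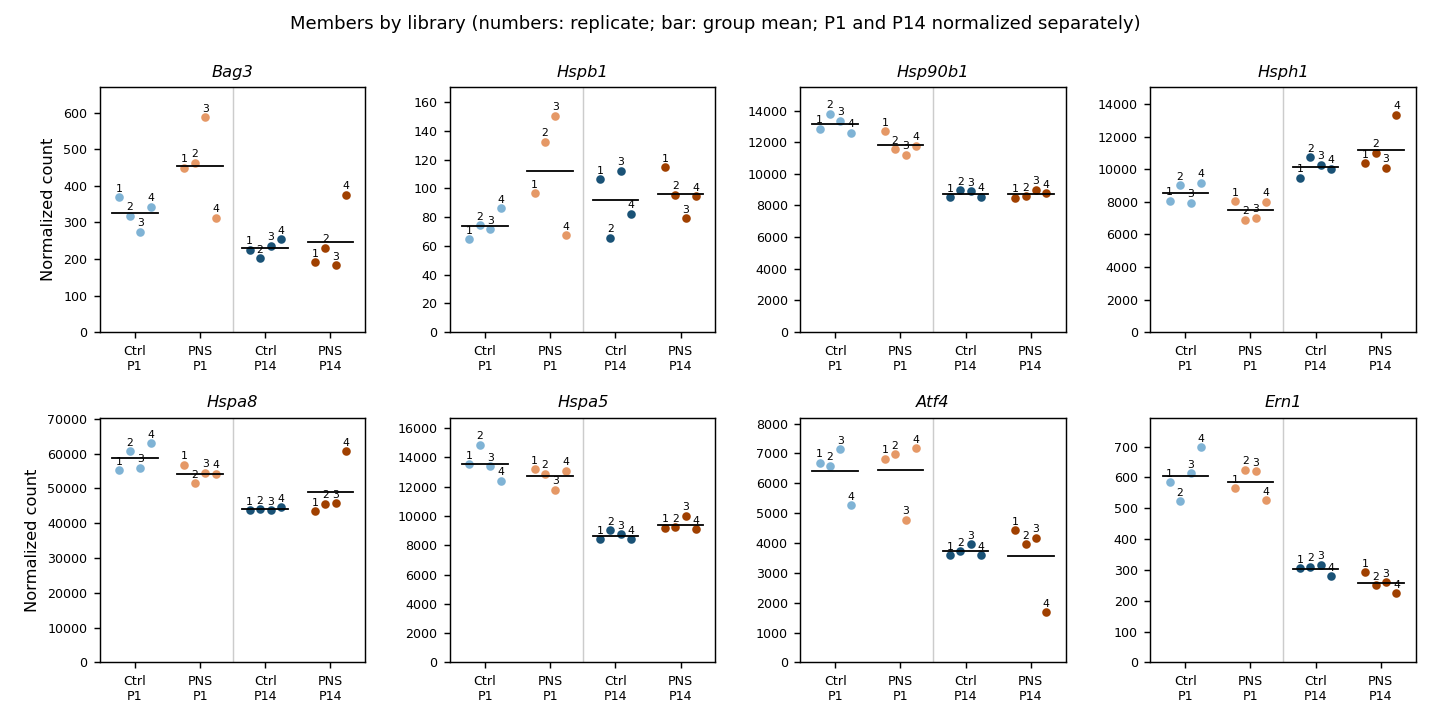
Normalized counts of 8 genes in every library, with the replicate number at each point and the group mean as a bar; P1 and P14 were normalized separately, so heights are comparable within an age only. Bag3 and Hspb1 are high in PNS replicates 1 to 3 of P1, and Hspa8 is high and Atf4 low in PNS replicate 4 of P14.

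**Figure D5:**
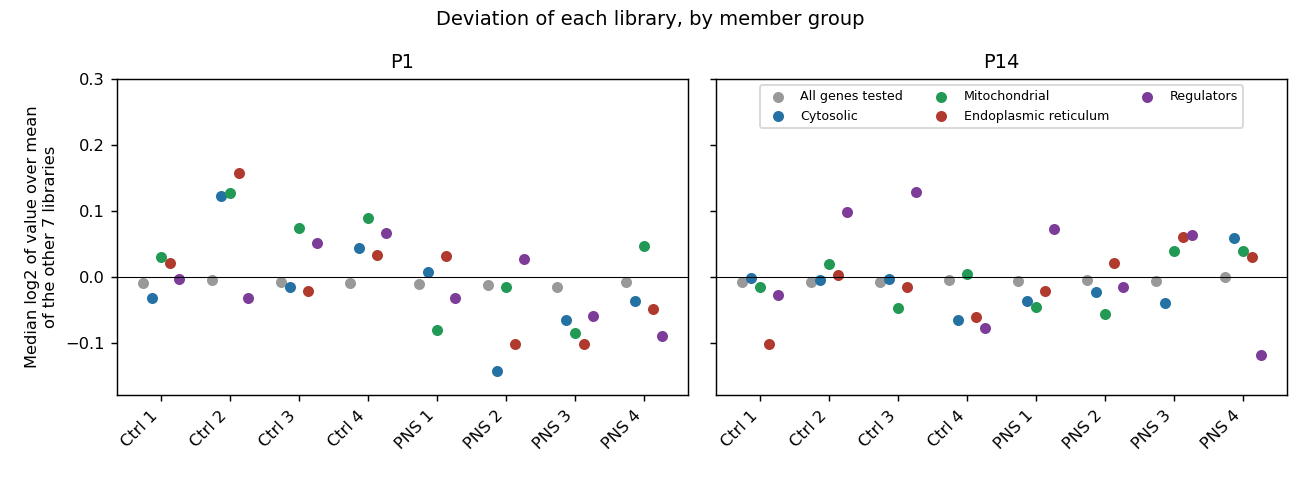
For each library, the median over the genes of a compartment of the log2 ratio to the mean of the other 7 libraries of its age. At P1 the cytosolic, mitochondrial and ER medians are highest in Ctrl replicate 2 (0.12, 0.13 and 0.16), while the cytosolic median is lowest in PNS replicate 2 (-0.14).

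The plot of library medians gave the values of single libraries behind the P1 counts. Ctrl replicate 2 was the highest for the cytosolic, mitochondrial and ER genes, with medians of 0.12, 0.13 and 0.16 over the mean of the other 7 libraries. PNS replicates 2 and 3 were low for the cytosolic genes, at -0.14 and -0.07, and for the ER genes, at -0.10 each. Without Ctrl replicate 2, 26 of 36 genes lay below 0 at P1, with a median of -0.07.

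The difference between the stress effects, P14 minus P1, was tested in 1 fit of all 16 libraries. None of the 36 genes passed (limma), 0% of the 16418 genes tested passed, and edgeR and DESeq2 called 0 of the 36. Over all genes, 973 had an unadjusted p below 0.05 in limma, edgeR called 0, and DESeq2 called 2 higher and 7 lower. Without PNS replicate 4 of P1, limma called 0 higher and 74 lower over all genes and 0 of the 36. An unadjusted p below 0.05 was found in 8 of 36 genes, or 22.2% beside 5.93% of all genes, and in all 8 the effect was more positive at P14: Manf, Hsph1, Pdia6, Hspa5, Dnaja1, Calr, Hspd1 and Hsp90b1. Manf had a log2 difference of 0.23 ± 0.0811, Hsph1 of 0.33 ± 0.120, Pdia6 of 0.22 ± 0.0869 and Hspa5 of 0.20 ± 0.0846, with a limma adjusted p of 0.782 for the first pair, 0.788 and 0.804. The median over the 36 genes was 0.15, against 0.01 for all genes, with 0.14 for the cytosolic, 0.10 for the mitochondrial and 0.16 for the ER genes, and -0.03 for the regulators. The libraries of each age enter both this value and the comparison within that age, so this is not a further observation. The genes were chosen with earlier results of these data known, so the shares and medians are described and not tested. Without PNS replicate 4 of P14 the difference was 0.24 for Hsph1, 0.18 for Calr and 0.14 for Hspd1.

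The 7 genes with the ER stress element had medians of -0.12 at P1 and 0.10 at P14 for PNS against Ctrl, with 6 of 7 below 0 at P1 and 5 of 7 above 0 at P14. The 14 ER genes, to which they belong, had medians of -0.11 and 0.06. The 6 genes with the heat shock element had medians of -0.11 and 0.05. At P1, 5 of 6 lay below 0, Hspb1 being the exception, and at P14 4 of 6 lay above 0. Of all members, 31 of 36 lay below 0 at P1 and 25 of 35 above 0 at P14. These 6 include Hspa1a and Hspa1b, with nearly the same promoter window, and Hspd1 and Hspe1, which share a promoter stretch. With age in Ctrl, 3 of the 7 genes with the ER stress element passed, Dnajc3 higher and Creld2 and Pdia6 lower, beside 71.2% of all genes. In PNS 6 of the 7 passed, 4 higher and 2 lower, beside 72.3% of all genes. The medians of these 7 were -0.03 in Ctrl and 0.16 in PNS. Of the 6 genes with the heat shock element, 1 passed higher and 3 lower with age in Ctrl. In PNS 0 of these 6 passed higher and 2 lower, with medians of -0.31 in Ctrl and -0.12 in PNS.

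Hspa1a and Hspa1b, the stress-inducible HSP70 genes, have nearly the same sequence, and 62.3% of the 50-base words in the Hspa1b transcript also occur in Hspa1a. The sources used here do not say how the counting placed such reads, so their sum is given. The sum was 526, 717, 611 and 516 normalized counts in Ctrl at P1 and 514, 476, 583 and 530 in PNS. The groups overlapped, with means of 592 ± 93.3 and 526 ± 44.5 (SD, n = 4; exact two-sided permutation test, p = 0.257). At P14 the sums were 251, 297, 280 and 273 in Ctrl and 261, 272, 303 and 264 in PNS, with a mean of 275 in each (exact two-sided permutation test, p = 0.971). The smallest p that 4 against 4 libraries allow is 0.0286. Of the other genes, Hspa8 shares 67.3% of its words with other transcripts, mainly Gm15459, Hsp90aa1 50.1%, Hspb1 48.8%, Hspd1 39.7%, Hspe1 36.1% and Dnaja1 17.7%, so that part of their reads could have been lost or placed elsewhere. The remaining 28 genes outside this group share at most 5.50%.

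At P14, 0 of the 98 other genes of the pathways passed and 0 had an unadjusted p below 0.05 (limma). The smallest p belonged to Psat1, a serine synthesis enzyme (log2 0.13 ± 0.0616), and to Uggt1, which tests the folding of ER glycoproteins (log2 0.19 ± 0.0939), both with higher values in PNS. Without PNS replicate 4 these differences were 0.08 and 0.09. Txndc5, an ER thioredoxin, was at 1979, 1875, 1951 and 1983 normalized counts in Ctrl and at 1855, 1844, 1789 and 1766 in PNS, without overlap (log2 -0.10 ± 0.0509, limma adjusted p = 0.988). Ppp1r15b, a subunit of the phosphatase that acts on eIF2 alpha, differed by 0.09. Immediate early genes were not even across these libraries. Their summed level was 25641 to 42572 in Ctrl and 26640 to 54186 in PNS, with 11 of 12 genes averaging higher in PNS. The same was so for 8 of 8 endothelial, 7 of 8 microglia and 6 of 9 cortical neuron markers. It was so for 0 of 10 myelin, 1 of 8 meningeal and 1 of 8 astrocyte markers. The sums of these cell types overlapped between PNS and Ctrl. The part of all these markers in the P14 differences was not tested.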

How the data were processed

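Per the submitters' processing notes, cutadapt, STAR 2.7.3a, HTSeq and DESeq2 were used with GRCm38; the sources used here do not give the strand setting or the annotation. Each age has 1 deposited table of signal values, namely counts that the authors normalized with DESeq2. Between 99.97% and 100% of them were whole multiples (tolerance 0.0051) of the value of 1 read, so reads were recovered by division.

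The stress comparisons used limma 3.58.1 (R 4.3.3, trend) on log2(value + 1), and genes had to average 10 or more; fold changes on that scale understate changes of weak genes. Ages were compared by edgeR 4.0.16 (TMM, 4 groups in 1 fit) on the recovered reads of the shared genes; its SE is the log2 difference over the square root of F. DESeq2 1.42.0 was an alternative. P-values were adjusted over all genes (Benjamini-Hochberg). The fits were tested on simulated data. Exon lengths and places are from GENCODE M21 on GRCm38.

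The members and gene lists were chosen with earlier results of these data known. All members may be named; per-library values go to those with the smallest p in a stress comparison, the largest age changes and the widest and narrowest ranges, and the per-library values of Hspa8, Hspe1, Hsph1 with age, and Creld2 at P1, and Sel1l, were added after their values were seen. Libraries were treated as unpaired, since the sources used here do not say whether equal replicate numbers share a litter.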

Additional observations from a re-analysis of the deposited data

Results flagged for a closer look

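In 10 of 144 sets of 4 libraries (a gene in a group), 1 library was separated from the other 3 by more than Dixon's 95% limit; chance alone gives about 1 in 20. In PNS replicate 4 of P14, Hspa8 was at 60654.6 normalized counts, against 43439 to 45768, and Atf4 at 1686.42, against 3963 to 4432. In PNS replicate 3 of P14, Hspa5 was at 10016.8, against 9105 to 9209, and Ddit3 at 389.83, against 308 to 319. In PNS replicate 3 of P1, Atf4 was at 4775.43, against 6820 to 7176, and its target Trib3 at 64.6, against 34.9 to 36.1. In PNS replicate 4 of P1, Hspa4l was at 1441.92, against 1712 to 1759. In PNS replicate 2 of P1, Manf was at 3332.41, against 3707 to 3782. In Ctrl, Creld2 was at 1076.23 in replicate 2 of P1, against 910 to 932, and Pdia4 at 930.25 in replicate 1 of P14, against 1152 to 1161.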

How the results depend on the processing

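The number of the 36 genes that passed PNS against Ctrl was 0 at P1, 0 at P14 and 0 for the difference between ages under every alternative run: pseudocounts of 0.5 and 5, no filter on low values, TMM scaling, edgeR, DESeq2, the replicate number as a block, each library left out in turn and, at P1, PNS replicates 2 and 3 left out, which was chosen after seeing the data. The smallest adjusted p of any member in these was 0.0876 at P1, 0.880 at P14 and 0.210 for the difference. Over all genes DESeq2 called 57 higher and 13 lower at P1 and 3 higher and 2 lower at P14, where limma and edgeR called 0. With 1 library left out, the count of members below 0 at P1 ran from 26 to 30 and the count above 0 at P14 from 22 to 27. Among values that did not pass, 9 genes at P1 and 15 at P14 changed sign under some alternative. With age, 20 to 23 genes passed in Ctrl and 20 to 25 in PNS with 1 library left out, and 22 to 23 and 24 to 25 under the other scalings, tools and filters, apart from the replicate block. As a block, the replicate number gave 24 in Ctrl and 19 in PNS. Deviations of libraries with the same number had r from -0.36 to 0.21, with no comparison in which every pair was over 0.1. Such a correlation cannot exclude a shared litter or batch, and the labels do not say whether equal numbers share one. Calls in Ctrl that ended without 1 library were those of Hspa8, Xbp1, Dnaja1 and Ddit3, while Hspa1a passed without Ctrl replicate 1 of P14; in PNS the calls that ended were those of Sdf2l1, Hspa5, Hspa1a and Ddit3. With age in PNS, Hspb1 passed without PNS replicate 3 of P1, Bag3 without PNS replicate 4 of P14 and Calr without PNS replicate 1 of P14. The shallowest library, Ctrl replicate 3 of P14, limits genes at the level of Trib3 and Hspa1a, whose counts there were 2.34 and 44.4 after normalization.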
